A study of Mus musculus with 18 samples.

Results

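The 36 genes described here encode the core machinery of autophagy, its cargo receptors, the TFEB family of transcription factors and a set of lysosomal proteins. They were chosen by symbol and by their roles, with earlier results of these data known. Each symbol was found once among the 56691 genes of the deposited table. All 36 had enough counts to be tested. Total RNA was sequenced from livers of C57BL/6 mice, all wild-type, with 6 libraries in each of 3 groups. The sham operation was a laparotomy only. In the IR group (ischemia and reperfusion), a clip on the portal triad made about 70% of the liver ischemic for 1 h, and blood flow was then restored for 6 h. IR-Ori mice went through the same operation and also received oridonin, a diterpenoid of the plant Isodon rubescens. How much oridonin was given, by which route and when, and the age and sex of the mice, are not stated in the labels. The labels also do not tie each library of a group to an animal of its own. The p-values therefore measure the spread between these samples, which may be technical.

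In autophagy, a cell encloses part of its own cytoplasm in a double membrane and delivers it to the lysosome for breakdown. A kinase complex (ULK1 or ULK2, ATG13 and the product of Rb1cc1) starts the process, and a lipid kinase complex with Beclin 1 and ATG14 marks the membrane with the lipid PI3P. ATG9A and ATG2A supply lipid to the growing membrane, and a pair of ubiquitin-like conjugation systems attach the small ATG8 proteins (LC3 and GABARAP) to it. Cargo receptors such as p62 bind both the cargo and the ATG8 proteins, and lysosomal cathepsins digest what arrives. The transcription factors TFEB, TFE3 and MITF switch on many lysosomal and autophagy genes by binding the sequence CACGTG. In the liver, autophagy supplies amino acids in fasting and removes damaged mitochondria and protein aggregates.

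Libraries held 12449529 to 19798188 counts. Genes of the mitochondrial chromosome took 10.3 to 42.8% of the counts of sham libraries (median 19.7%). In IR libraries they took 6.52 to 42.9% (17.0%), and with oridonin 14.1 to 32.0% (29.2%). The share was under 15% in sham 1, 3 and 4, in IR 4, 5 and 6 and in IR-Ori 5, where the number is the library's replicate number. Levels are given as the deposited FPKM, counts scaled to the exonic length of the gene and to the total count of the library, mitochondrial genes included. A nuclear gene that holds the same part of the nuclear counts therefore has a lower FPKM where the mitochondrial share is larger. The 10 hepatocyte markers found were present in every group, and none of them passed the test in any comparison. In IR against sham, 3 of 8 endothelium, 1 of 8 stellate cell and 1 of 5 cholangiocyte markers tested rose. Of the cholangiocyte markers, 1 fell in IR-Ori against IR. Of 9 neutrophil markers tested, 8 rose in IR against sham and 2 fell in IR-Ori against IR, with median log2 fold changes of 3.33 and -1.77. The 10 neutrophil markers found summed per library to 4.09 to 27.5 FPKM in sham, 68.4 to 309 in IR and 8.21 to 64.5 with oridonin. Of 9 monocyte and recruited macrophage markers, 7 rose in IR against sham and 6 fell in IR-Ori against IR. Their median log2 fold changes were 2.32 and -1.80. The 10 markers found summed per library to 55.8 to 107 FPKM in sham, 96.2 to 136 in IR and 66.5 to 121 with oridonin. A sum follows its highest genes, so it does not measure the number of these cells. In whole liver, fewer cells of a type and less RNA per cell cannot be told apart.

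IR was set against sham to see the effect of ischemia followed by reperfusion. Among the 36 genes, the cargo receptor gene Sqstm1, the lipid transfer gene Atg2a and the lysosomal enzyme gene Gla rose, and the lysosomal calcium channel gene Mcoln1 fell. The other 32 did not pass the test. These 4 calls are 11.1% of the 36 genes, and 7.89% of the 14595 genes tested passed in either direction (edgeR, adjusted p under 0.05 over all genes tested). By direction, 8.33% of the 36 rose against 5.52% of all genes, and 2.78% fell against 2.36%. The share of calls was thus near the background. The median log2 fold change of the 36 was 0.05, against 0.00 over all genes, with 18 positive and 18 negative values.

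Oridonin was assessed by comparing IR-Ori with IR. Sqstm1 and the ATG8 gene Map1lc3a fell, and no member rose. These 2 genes are 5.56% of the 36, against 3.60% of all genes in either direction and 3.01% for genes that fell. Rising genes made up 0.596% of all genes. The median log2 fold change of the 36 was -0.33 against -0.00 over all genes, and 23 of them (63.9%) had a negative value, as did 7298 of the 14595 genes tested. At an unadjusted p under 0.05, 13 members (36.1%) were lower and 3 (8.33%) were higher, against 14.4% and 9.81% of all genes. Both comparisons contain the same IR libraries, so a high or low IR library moves them in opposite directions.

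Between IR-Ori and sham, 0 of the 36 genes and 0% of all genes passed the test in edgeR. At an unadjusted p under 0.05 1 member (2.78%) was higher and 2 (5.56%) were lower, against 6.35% and 3.66% of all genes. DESeq2, which called 0.260% of all genes, and limma also called 0 members. The median log2 fold change of the members was -0.13 (-0.01 over all genes), and 25 of 36 values were negative.

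**Figure D1:**
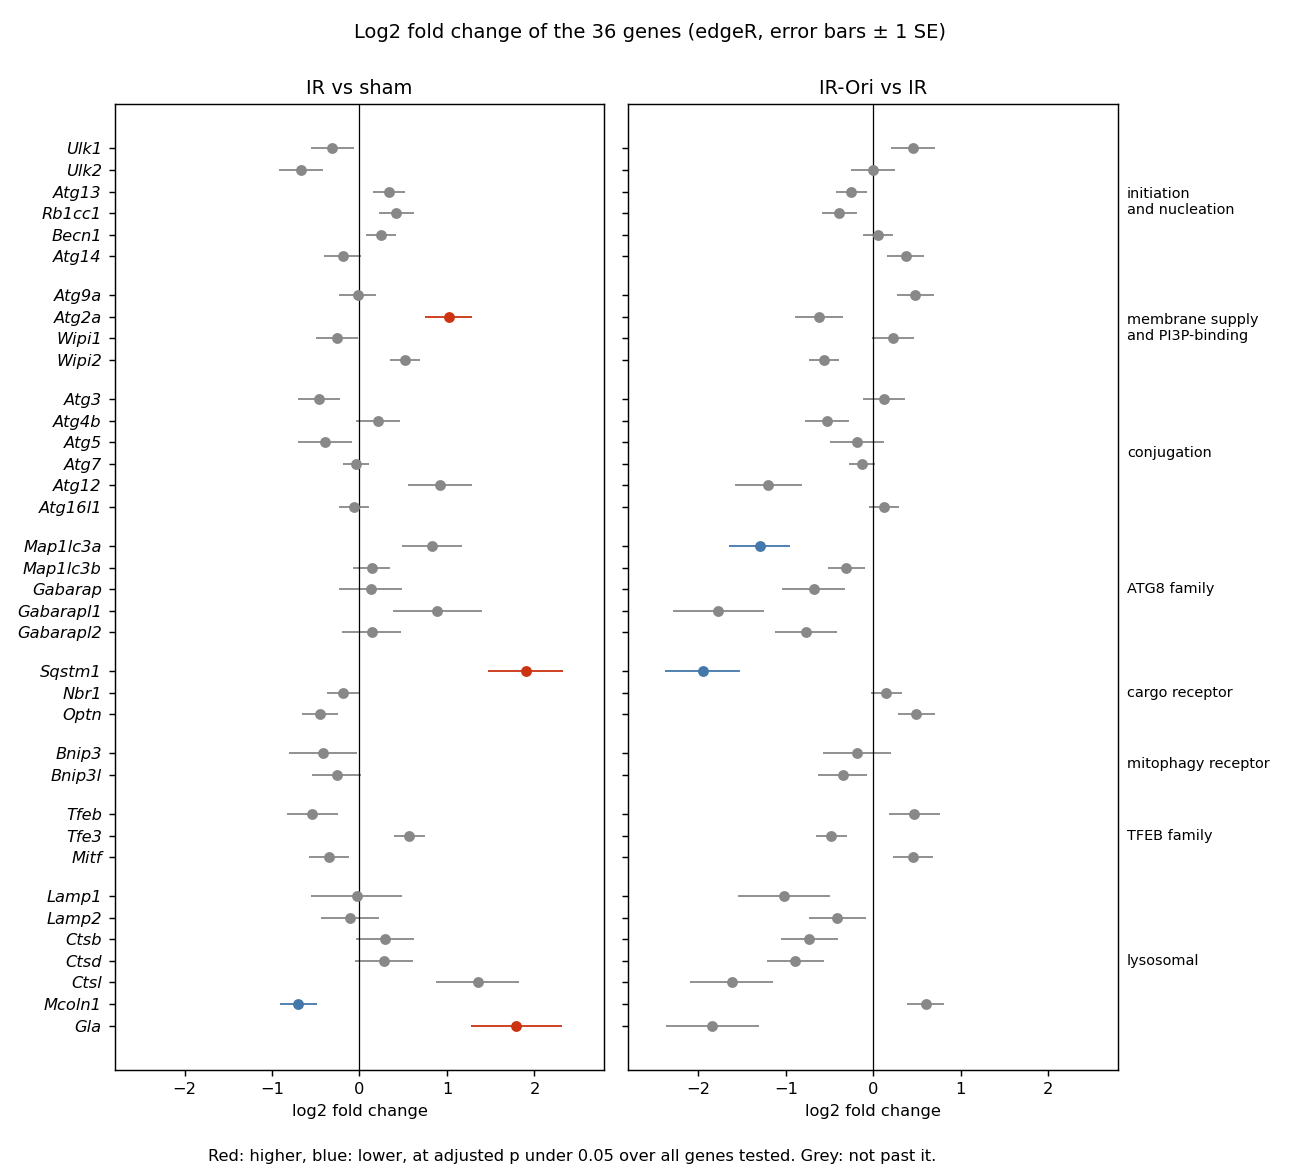
Log2 fold change (horizontal axis) of the 36 genes grouped by role, for IR against sham on the left and IR-Ori against IR on the right. Bars are ± 1 standard error, with 6 libraries a group. Coloured points passed an adjusted p of 0.05: Sqstm1, Atg2a, Gla and Mcoln1 on the left, Sqstm1 and Map1lc3a on the right.

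Sqstm1 encodes p62, the receptor that gathers ubiquitin-tagged cargo, carries it to LC3 and is itself degraded by autophagy. It lies at chr11:50090193-50101654 on the minus strand (GRCm39). Its FPKM was 78.1, 48.9, 156, 126, 111 and 79.2 in sham 1 to 6, with a median of 95.2. In IR it was 91.7, 150 and 166 in libraries 1 to 3, and 426, 1089 and 534 in libraries 4 to 6. In IR-Ori it stayed between 68.8 and 127, with a median of 93.4. IR libraries 4 to 6 stood above every library of the other groups, whereas IR libraries 1 to 3 lay within or just above the sham range, so the groups overlapped. Sqstm1 was 3.72-fold higher in IR than in sham (log2 fold change 1.90 ± 0.43 SE, adjusted p = 0.0118, edgeR). In IR-Ori it was 0.259 times the IR level (log2 fold change -1.95 ± 0.43, adjusted p = 0.0184). It differed from sham by -0.05 ± 0.42 on the log2 scale in IR-Ori (adjusted p = 0.964).

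The 3 IR libraries with high Sqstm1 were the 3 with a mitochondrial share under 15%. With the share as a covariate, the log2 fold change of Sqstm1 was 1.53 ± 0.31 for IR against sham (adjusted p = 0.00517) and -1.27 ± 0.32 for IR-Ori against IR (adjusted p = 0.0474). Over the libraries with a share of at least 15%, it was 0.71 ± 0.27 (adjusted p = 0.332) and -0.55 ± 0.24 (adjusted p = 0.483). Over those under 15%, with 3 libraries a group, the rise in IR was 2.36 ± 0.40 (adjusted p = 0.0116). Over the alternatives that keep or split the libraries in other ways, the adjusted p of Sqstm1 ranged from 0.000204 to 0.332 for IR against sham, and from 0.000234 to 0.483 for IR-Ori against IR. The rise kept its call when any 1 of the 12 sham and IR libraries was left out. Without IR 5 or without IR-Ori 1 the fall did not pass, with an adjusted p of at most 0.0542. It also did not pass in a fit of the IR and IR-Ori libraries alone (adjusted p = 0.0547), in limma or with the replicate numbers as a block.

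Nbr1 and Optn, which encode 2 further receptors for ubiquitin-tagged cargo, did not follow Sqstm1. Nbr1 had median FPKM of 28.8, 26.3 and 28.7 in sham, IR and IR-Ori, with a log2 fold change of -0.19 ± 0.18 in IR against sham and 0.15 ± 0.18 in IR-Ori against IR. Optn (optineurin) had medians of 34.5, 24.4 and 36.4, and its log2 fold changes were -0.45 ± 0.21 and 0.49 ± 0.21. Its IR libraries 4 to 6, at 18.5, 20.9 and 21.6, lay below every other library, whereas IR libraries 1 to 3, at 27.2 to 35.2, did not. Neither gene passed the test. For the mitophagy receptor genes Bnip3 and Bnip3l, whose products recruit ATG8 proteins to mitochondria, all log2 fold changes were negative, between -0.61 and -0.19, and none passed. A near-identical copy of Bnip3l, Bnip3l-ps, had a mean count of 21.1, and reads of the 2 may be split.

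**Figure D2:**
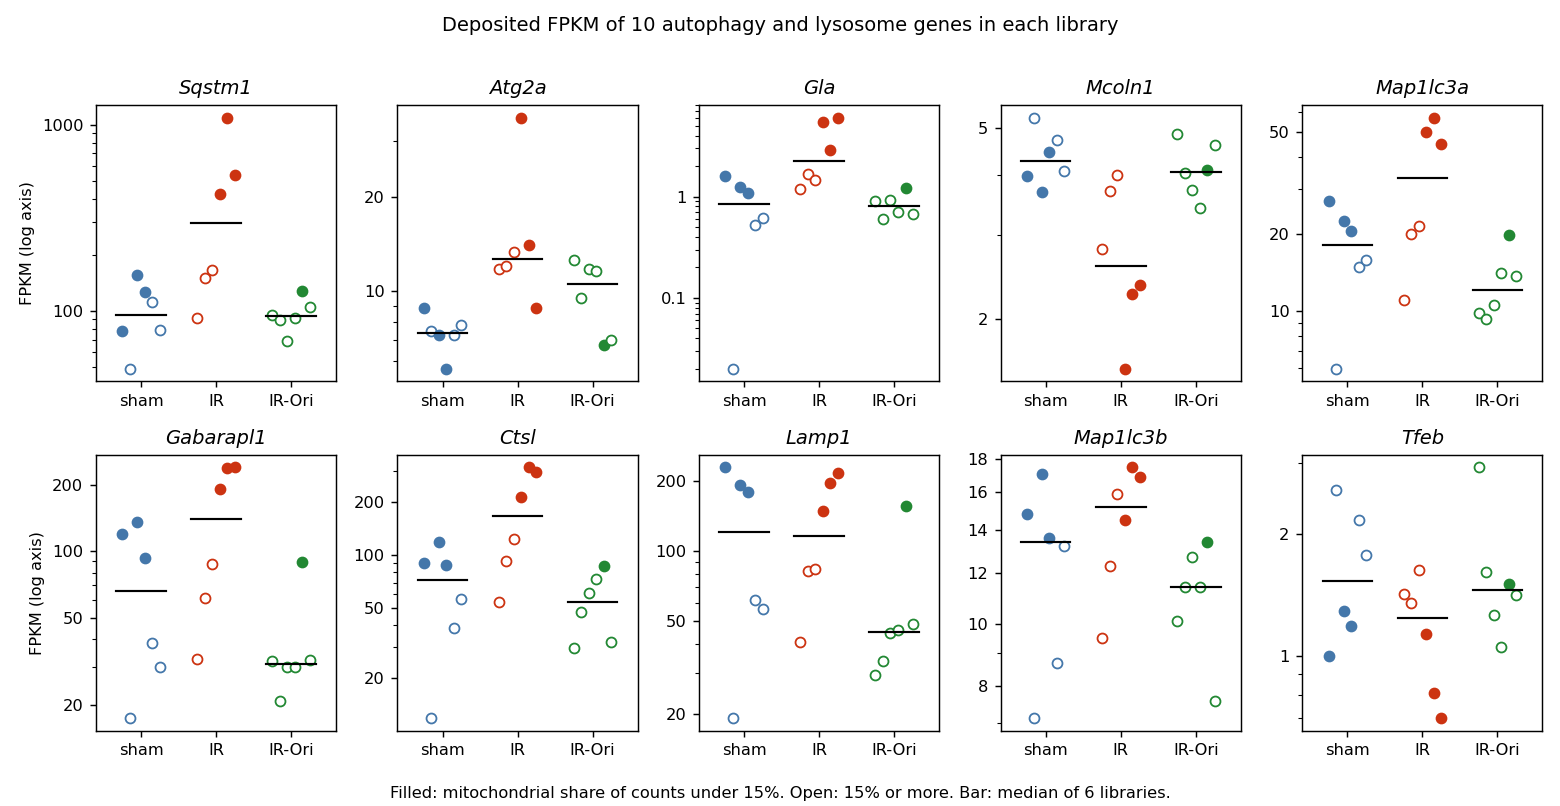
Deposited FPKM (log axis) of 10 genes in each of 18 libraries by group. Filled points have a mitochondrial share under 15%, open points 15% or more, and the bar is the median of 6 libraries. Filled IR points stand highest for Sqstm1 (426 to 1089) and lowest for Mcoln1 (1.58 to 2.36).

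Genes of the initiation and nucleation complexes showed no call in any comparison. Ulk1, which encodes the kinase that starts autophagy, had medians of 9.20, 8.21 and 11.5 FPKM in sham, IR and IR-Ori. Ulk2, its close relative, had medians of 7.02, 4.80 and 3.62. The log2 fold change of Ulk2 was -0.67 ± 0.25 against sham in IR (adjusted p = 0.107) and the same, -0.67 ± 0.25, in IR-Ori (adjusted p = 0.493). Atg13, Rb1cc1 and Becn1, which encode the ULK partner ATG13, the scaffold FIP200 and Beclin 1, had log2 fold changes of 0.34, 0.42 and 0.25 in IR against sham. Atg14, whose product directs the lipid kinase to the site of autophagosome formation, had -0.19. Adjusted p-values of these 6 genes were 0.107 to 0.619 in IR against sham and 0.237 to 0.999 in IR-Ori against IR.

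Atg2a encodes a protein that bridges the endoplasmic reticulum and the growing membrane and passes lipid between them. It lies at chr19:6291698-6312365 on the plus strand (GRCm39). Its FPKM ranged from 5.67 to 8.83 in sham (median 7.36). The IR libraries held 11.8, 12.0, 13.3, 35.6, 14.0 and 8.85, and IR-Ori ranged from 6.74 to 12.6 (median 10.6). Atg2a was the single member whose sham and IR ranges did not overlap, by a margin of 8.83 against 8.85, and 3.17% of all genes tested had no overlap. It was 2.02-fold higher in IR (log2 fold change 1.02 ± 0.27, adjusted p = 0.0256). IR 4, at 35.6, stood far above the other IR libraries, and without it the log2 fold change was 0.64 and did not pass. The call was also lost without sham 3, sham 4 or sham 5, with an adjusted p of at most 0.0771 over all libraries left out. It did not pass in a fit of the sham and IR libraries alone (adjusted p = 0.0523), at a mitochondrial share of at least 15% (0.68, adjusted p = 0.267) or under 15% (1.29, adjusted p = 0.114), within a range of 0.00639 to 0.267 over all alternatives. A fit with the replicate numbers as a block also lost the call. In contrast to Sqstm1, Atg2a did not vary with the mitochondrial share within the groups (0.05 ± 0.11 on the log2 scale per 10 percentage points, adjusted p = 0.740).

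Wipi2, whose product binds PI3P and recruits the conjugation machinery, had medians of 8.13, 11.6 and 7.91 FPKM in sham, IR and IR-Ori. Its sham libraries were tightly grouped at 7.15 to 8.63, and IR libraries 4 to 6 held 12.8 to 18.8. The log2 fold changes were 0.52 ± 0.17 (adjusted p = 0.0564) and -0.56 ± 0.17 (adjusted p = 0.0593), just short of the threshold in each comparison. Wipi1 and Atg9a, which encode a second PI3P-binding protein and the scramblase that brings membrane to the site, did not pass either. Atg9a overlaps the gene Ankzf1 on the opposite strand, which had a mean count of 824 against 186 for Atg9a. The labels do not say whether counting used the strand, so reads of these 2 genes may not be told apart. The same holds for Atg4b and Thap4 (mean counts 238 and 102), Map1lc3b and Zcchc14 (1482 and 548) and Lamp1 and Grtp1 (4432 and 274).

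Of the 6 conjugation genes, none passed in any comparison. Atg12, which encodes the ubiquitin-like protein that is joined to ATG5, had 1.09 to 4.28 FPKM in sham (median 3.13). In IR it was 2.00, 3.05 and 3.41 in libraries 1 to 3 and 7.04, 9.33 and 9.88 in libraries 4 to 6, and IR-Ori ranged from 1.73 to 4.05 (median 2.14). IR libraries 4 to 6 again stood apart from all others. The log2 fold changes were 0.92 ± 0.37 (adjusted p = 0.139) and -1.20 ± 0.38 (adjusted p = 0.0741). Atg5 and Atg3, which encode the partner of ATG12 and the enzyme that passes LC3 to lipid, had negative values against sham in both groups. They were -0.39 and -0.46 in IR, and -0.59 and -0.34 in IR-Ori. Atg7, the shared activating enzyme, varied little, with group medians of 2.79 to 3.34 FPKM and a log2 fold change of -0.04 ± 0.15 in IR against sham. Atg16l1, which forms the complex with ATG12 and ATG5, had medians of 3.77 to 4.27, and Atg4b, the protease that prepares LC3, had medians of 1.39 to 2.12.

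The ATG8 genes encode the small proteins that are attached to the autophagosome membrane, LC3A and LC3B (Map1lc3a, Map1lc3b) and the GABARAP proteins. On the FPKM scale, Gabarap and Gabarapl1 were the highest of the 5, with sham medians of 73.0 and 65.7. Map1lc3a, Gabarapl2 and Map1lc3b followed with 18.1, 14.0 and 13.4, and the ranges of these last 3 overlapped. The sham ranges of Gabarap (16.9 to 110) and Gabarapl1 (17.5 to 135) also overlapped those of Map1lc3a (5.97 to 27.0) and Gabarapl2 (4.25 to 19.4). Gabarap overlapped Map1lc3b (7.13 to 17.1) as well. Map1lc3a lies at chr2:155118217-155119993 on the plus strand (GRCm39). It held 5.97 to 27.0 FPKM in sham, 11.1 to 21.5 in IR libraries 1 to 3, 45.0 to 57.0 in IR libraries 4 to 6, and 9.29 to 19.9 in IR-Ori. It was 0.407 times the IR level in IR-Ori (log2 fold change -1.30 ± 0.35, adjusted p = 0.0432), and its value for IR against sham was 0.83 ± 0.34 (adjusted p = 0.147). The call in IR-Ori was lost without any 1 of 8 libraries: IR 4 to 6, IR-Ori 1 to 4 or IR-Ori 6, with an adjusted p of up to 0.121. It was also lost in a fit of the IR and IR-Ori libraries alone (adjusted p = 0.0655), in limma and with the replicate numbers as a block. Over libraries with a mitochondrial share of at least 15% it was -0.56 ± 0.27 (adjusted p = 0.530), and the adjusted p ranged from 0.00880 to 0.530 over all alternatives.

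Gabarapl1 had the widest spread of the family. It held 119, 135 and 93.0 FPKM in sham 1, 3 and 4 and 17.5 to 38.4 in the other sham libraries. In IR it held 192, 237 and 240 in libraries 4 to 6 and 32.5 to 87.2 in libraries 1 to 3. IR-Ori 5, with 89.5, stood apart from the other IR-Ori libraries, at 21.0 to 32.2. In each group the libraries with a mitochondrial share under 15% were the highest. Its log2 fold change was 0.89 ± 0.51 in IR against sham (adjusted p = 0.304) and -1.77 ± 0.52 in IR-Ori against IR (adjusted p = 0.0581). Map1lc3b, the most used marker of autophagosomes at the protein level, had medians of 13.4, 15.2 and 11.4 FPKM. Its log2 fold changes of 0.14 ± 0.21 and -0.31 ± 0.21 did not pass (adjusted p = 0.733 and 0.370). Over the family, all 5 values for IR-Ori against IR were negative, with a median of -0.77, and 1 of the 5 passed. With the mitochondrial share as a covariate the median was -0.35, with 5 negative values and calls for Map1lc3a and Gabarapl1.

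The TFEB family genes were expressed at low levels, with at most 6.25 FPKM in any library. Tfeb held 1.00 to 2.56 FPKM in sham (median 1.53), 0.700 to 1.63 in IR (1.24) and 1.05 to 2.92 with oridonin (1.46), and the groups overlapped. Its log2 fold changes were -0.54 ± 0.29 (adjusted p = 0.270) and 0.47 ± 0.29 (adjusted p = 0.316). Tfe3 had medians of 2.67, 3.75 and 2.76, with log2 fold changes of 0.57 ± 0.18 (adjusted p = 0.0591) and -0.48 ± 0.18 (adjusted p = 0.122). Mitf, the scarcest, had medians of 0.875, 0.690 and 0.950, and neither of its values passed. The family therefore did not share a direction in IR against sham, where Tfe3 was positive and Tfeb and Mitf were negative.

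A stretch of promoter that holds CACGTG, the site TFEB family proteins bind, is shown for the lysosomal genes Gla, Mcoln1, Lamp1 and Ctsd. This site was chosen because Gla, which rose, and Mcoln1, which fell, both hold it. The windows are from RefSeq (GRCm38.p6, an older build than the GRCm39 of the counts), run from 250 bases before to 50 bases after each start, and were found for 29 of the 36 genes. The letters CACGTG, which read the same on both strands, occurred in 10 of the 29 genes (34.5%): Atg3, Atg5, Atg7, Atg14, Bnip3, Ctsd, Ctsl, Gla, Lamp1 and Mcoln1. They occurred in 7.2% of 32851 windows of the same length. The 29 genes had 35 windows. A gene was counted if any of its windows held the letters, whereas the background is counted by window. Of 6 lysosomal genes with a window, 5 held it. The longer TCACGTGA, which contains CACGTG, occurred in Atg3, Ctsd, Gla and Mcoln1 (13.8% of 29 genes, against 1.0% of windows). A match is a description of these letters and not evidence of binding. Each line gives 120 bases 5′ to 3′ on the gene's strand, with CACGTG in capitals. Sqstm1, the member with the largest change, is shown for comparison, and its window held none of the 5 motifs searched. Sequence outside the windows was not searched. Gla is chrX:134601136-134601255 (minus strand, positions -250 to -131 before the start). The others cover positions -120 to -1: Mcoln1 chr8:3500399-3500518 (plus), Lamp1 chr8:13159041-13159160 (plus), Ctsd chr7:142387828-142387947 (minus) and Sqstm1 chr11:50210821-50210940 (minus).
Gla: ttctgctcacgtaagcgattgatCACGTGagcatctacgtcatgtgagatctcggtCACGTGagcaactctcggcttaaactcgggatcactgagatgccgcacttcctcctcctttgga
Mcoln1: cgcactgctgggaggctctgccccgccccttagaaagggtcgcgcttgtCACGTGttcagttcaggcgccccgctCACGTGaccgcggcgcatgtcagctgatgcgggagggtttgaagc
Lamp1: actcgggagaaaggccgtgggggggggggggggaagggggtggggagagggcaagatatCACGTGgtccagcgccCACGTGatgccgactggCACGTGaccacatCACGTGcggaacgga
Ctsd: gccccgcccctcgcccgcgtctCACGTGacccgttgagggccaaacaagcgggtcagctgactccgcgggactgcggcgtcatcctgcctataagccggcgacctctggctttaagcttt
Sqstm1: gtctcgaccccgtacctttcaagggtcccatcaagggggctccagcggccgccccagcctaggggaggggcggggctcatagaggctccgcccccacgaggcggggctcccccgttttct

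In these stretches CACGTG occurred 2 times in Gla (from positions -227 and -194), 2 times in Mcoln1 (-71 and -45), 4 times in Lamp1 (-61, -45, -28 and -15) and 1 time in Ctsd (-98). The other motifs searched were the antioxidant response element core TGACNNNGC (5 of 29 genes: Atg13, Ctsd, Map1lc3b, Mitf and Ulk2; 12.4% of windows), the AP-1 site TGANTCA (Tfe3; 7.8%) and the heat shock element core GAANNTTC (Optn; 7.9%). Both strands were searched.

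Gla encodes alpha-galactosidase A, the lysosomal enzyme that removes terminal galactose from glycolipids. It lies at chrX:133488898-133501874 on the minus strand (GRCm39). It was scarce: 1.61, 0.0200, 1.25, 1.09, 0.530 and 0.620 FPKM in sham 1 to 6, where sham 2 had 1 count. IR held 1.18, 1.68 and 1.45 in libraries 1 to 3 and 5.46, 2.86 and 6.02 in libraries 4 to 6, and IR-Ori held 0.600 to 1.22. IR libraries 4 to 6 were above every other library, and the low IR libraries overlapped sham. Gla was 3.46-fold higher in IR than in sham (log2 fold change 1.79 ± 0.52, adjusted p = 0.0409). For IR-Ori against IR its log2 fold change was -1.84 ± 0.53, just short of the threshold (adjusted p = 0.0544). The rise was lost without any 1 of 7 libraries (sham 3 to 6 or IR 4 to 6), with an adjusted p of up to 0.108. It was also lost in a fit of the sham and IR libraries alone (adjusted p = 0.0878) and at a mitochondrial share of at least 15% (1.80, adjusted p = 0.254), within a range of 0.00487 to 0.254 over all alternatives. With the replicate numbers as a block the rise was lost as well. Its counts were few, 1 to 308 per library.

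Mcoln1 encodes mucolipin 1, the channel that releases calcium from the lysosome. It lies at chr8:3550457-3565232 on the plus strand (GRCm39). It held 3.98, 5.26, 3.68, 4.47, 4.72 and 4.08 FPKM in sham 1 to 6. IR held 2.81, 3.70 and 3.99 in libraries 1 to 3 and 1.58, 2.26 and 2.36 in libraries 4 to 6, and IR-Ori held 3.41 to 4.87. IR libraries 4 to 6, the highest for Gla, were the lowest for Mcoln1. Its level in IR was 0.616 times that in sham (log2 fold change -0.70 ± 0.21, adjusted p = 0.0428), and its value for IR-Ori against IR was 0.60 ± 0.21 (adjusted p = 0.0972). The fall was lost without any 1 of 7 libraries (sham 2, 4, 5 or 6, or IR 4, 5 or 6), with an adjusted p of up to 0.107. It did not pass without the filter on low counts (adjusted p = 0.0718), with library totals (0.0532), in a fit of the sham and IR libraries alone (0.101), at a mitochondrial share of at least 15% (0.316) or in limma, within a range of 0.0143 to 0.316 over all alternatives. With the replicate numbers as a block the fall did not pass either.

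The cathepsin genes encode the main lysosomal proteases. Ctsl held 11.9 to 119 FPKM in sham (median 72.1), 54.2, 93.3 and 123 in IR libraries 1 to 3, 213, 316 and 298 in IR libraries 4 to 6, and 29.6 to 87.2 in IR-Ori (54.4). IR libraries 4 to 6 stood above all others. Its log2 fold changes of 1.35 ± 0.47 and -1.62 ± 0.47 did not pass (adjusted p = 0.0818 and 0.0556). Ctsd had medians of 52.9, 61.4 and 30.8 and log2 fold changes of 0.28 ± 0.33 (adjusted p = 0.651) and -0.89 ± 0.33 (adjusted p = 0.119). Ctsb had medians of 47.3, 61.8 and 29.8, with values of 0.29 ± 0.33 and -0.73 ± 0.33. Ctsb overlaps Fdft1 on the opposite strand, with mean counts of 4516 for Ctsb and 934 for Fdft1.

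Lamp1 and Lamp2 encode the most abundant proteins of the lysosomal membrane. Lamp1 held 229, 193 and 179 FPKM in sham 1, 3 and 4 and 19.2 to 61.5 in the other sham libraries. In IR it held 148 to 216 in libraries 4 to 6 and 40.7 to 83.8 in libraries 1 to 3, and IR-Ori 5 held 156 against 29.3 to 48.7 elsewhere in that group. Low-share libraries thus stood high in every group, sham included. Its log2 fold change was -0.03 ± 0.52 in IR against sham (adjusted p = 0.985) and -1.02 ± 0.53 in IR-Ori against IR (adjusted p = 0.242). Lamp2 had medians of 45.6, 38.9 and 24.5, and its values of -0.11 ± 0.33 and -0.41 ± 0.33 did not pass. Of the 7 lysosomal genes, 6 had a negative value in IR-Ori against IR, with a median of -0.89, and 0 passed in edgeR. DESeq2, which called 9.15% of all genes, called Ctsl and Gla. With the mitochondrial share as a covariate the median was -0.45 and 0 passed.

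The 36 genes also differed in how they varied within a group. Allowing for the group, 20 of them (55.6%) fell as the mitochondrial share rose, and 23.0% of all genes tested were (edgeR, adjusted p under 0.05). Another 4 (11.1%) were higher, against 19.9% of all genes. Per 10 percentage points of mitochondrial share, the log2 level changed by -0.83 ± 0.08 for Gabarapl1, by -0.82 ± 0.10 for Lamp1, by -0.71 ± 0.11 for Ctsl and by -0.54 ± 0.13 for Sqstm1. All 5 ATG8 genes, 6 of 7 lysosomal genes and both mitophagy receptor genes were among the 20. The 4 that were higher were Optn, Tfeb, Mitf and Mcoln1, and Tfeb had the largest value, 0.36 ± 0.08. The slopes come from counts scaled between libraries and not from FPKM, with 1 slope for all 3 groups. For Sqstm1, the FPKM of sham libraries under 15% (78.1 to 156) overlapped that of the other sham libraries (48.9 to 111). In IR the 2 sets did not overlap (426 to 1089 against 91.7 to 166). The part of variation with the share in the group differences was not tested beyond the values given with it as a covariate. With that covariate, the members called in IR against sham were Sqstm1, Atg2a, Gla, Atg12, Ctsl, Gabarapl1, Map1lc3a, Tfe3 and Wipi2 (higher) and Mcoln1 and Ulk2 (lower). These 11 are 30.6% of the members, against 12.8% of all genes in the same fit. For IR-Ori against IR they were Gabarapl1, Map1lc3a and Sqstm1 (lower), which are 8.33% of the members against 1.99% of all genes. Over the libraries with a share of at least 15%, 0 members passed in either comparison, and 0.0943% and 0.101% of all genes did.

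**Figure D3:**
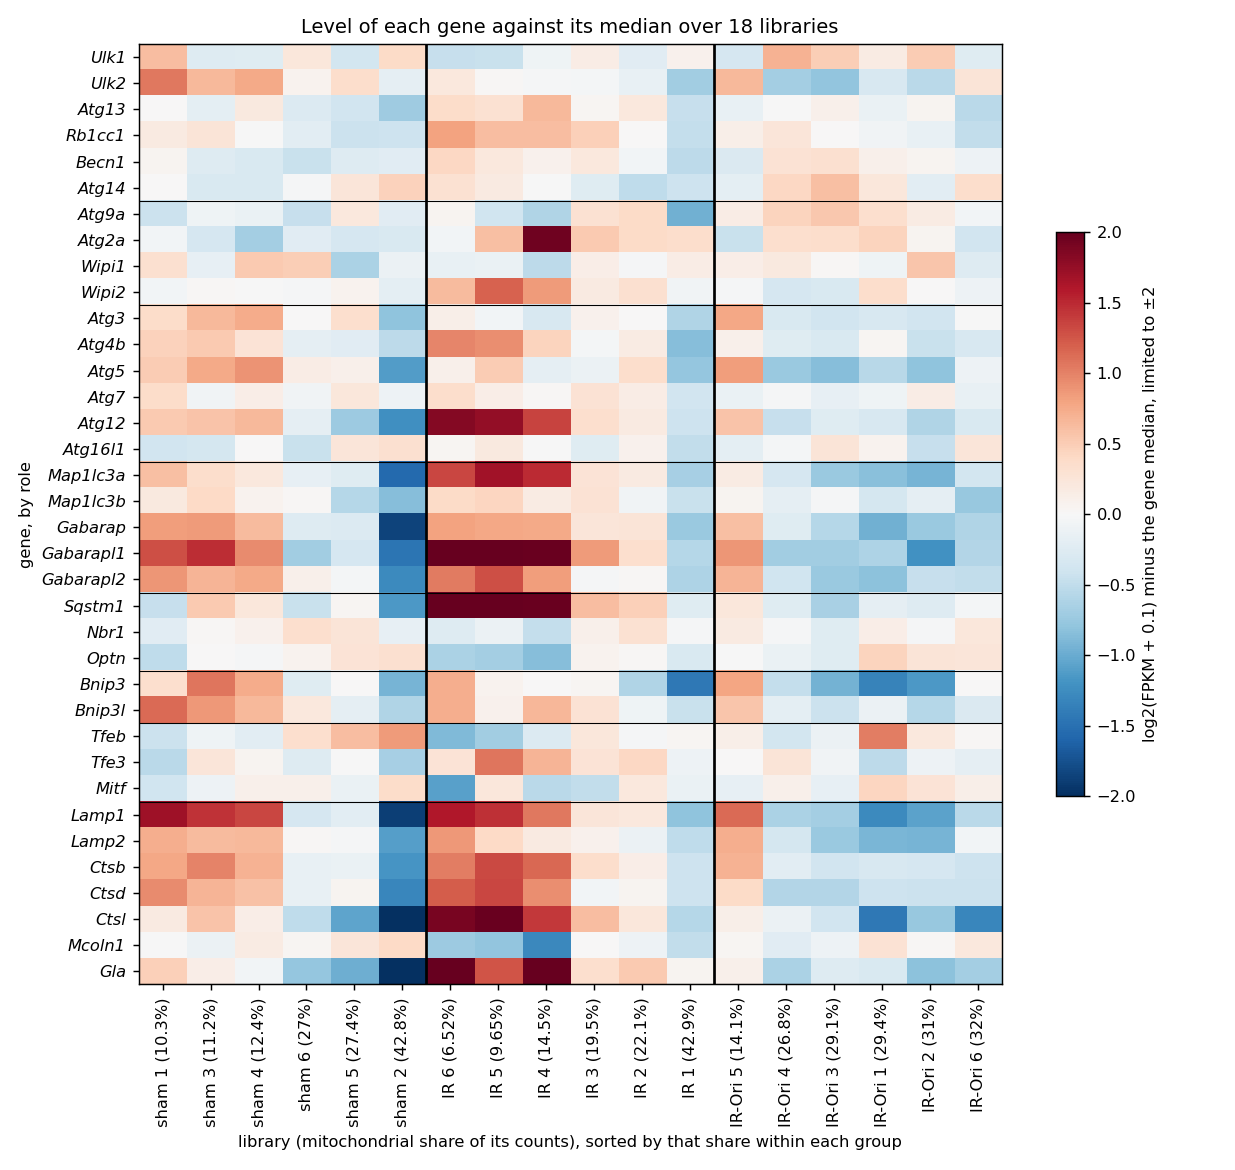
Level of each gene (rows, by role) in each library (columns, sorted by mitochondrial share within sham, IR and IR-Ori), as log2(FPKM + 0.1) minus the gene's median over 18 libraries, limited to ±2. The ATG8, cathepsin and Lamp genes are high in the leftmost libraries of each group. Sqstm1, Atg12 and Map1lc3a are highest in IR 4 to 6.

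**Figure D4:**
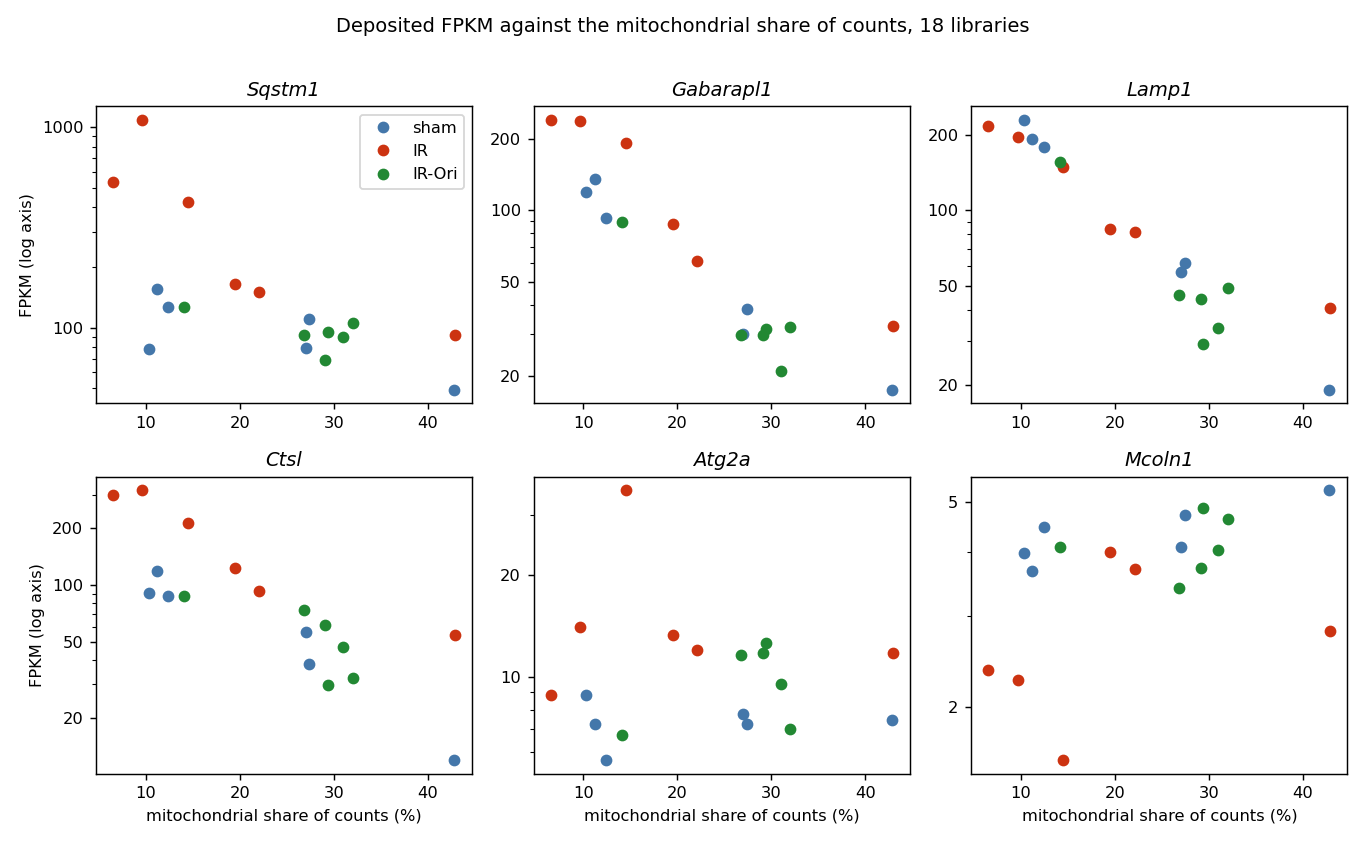
Deposited FPKM (vertical, log axis) of 6 genes against the mitochondrial share of the counts (percent, horizontal) in 18 libraries, coloured by group. Lamp1 runs from 229 FPKM at a share of 10.3% to 19.2 at 42.8% within sham alone. The 3 high Sqstm1 values, 426 to 1089, are IR libraries with shares of 6.52 to 14.5%.

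Besides the ranges of Atg2a, no member had FPKM ranges that did not overlap: 0 in IR-Ori against IR, where 1.49% of all genes had none, and 0 in IR-Ori against sham, where 0.206% had none. On the scale of counts adjusted between libraries, Wipi2 and Tfe3 also did not overlap between IR and sham, nor Gla between IR-Ori and IR. The share of all genes without overlap on that scale is not given here, so these cannot be judged against it.

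Of 138 further genes of the same pathways, 135 were in the table and 134 were tested. In IR against sham 5 rose and 1 fell, together 4.48% of them, and in IR-Ori against IR 1 rose and 5 fell, again 4.48%. In IR against sham and IR-Ori against IR, the shares of 4.48% were near the background of 7.89% and 3.60%. Between IR-Ori and sham 0 passed in edgeR, and DESeq2 and limma also called 0. At an unadjusted p under 0.05 in edgeR, 5 of the 134 were higher and 9 of the 134 were lower. Over all genes, 6.35% were higher and 3.66% were lower.

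Among the 26 further machinery genes, Bag3, which encodes a co-chaperone that feeds misfolded proteins to autophagy, rose 5.08-fold in IR. Its FPKM was 10.6 to 18.1 in sham and 18.1 to 190 in IR (log2 fold change 2.35 ± 0.47, adjusted p = 0.00568). In IR-Ori it was 11.5 to 19.4 and had fallen against IR (-2.07 ± 0.47, adjusted p = 0.0208). The fall did not pass with the mitochondrial share as a covariate, in a fit of the IR and IR-Ori libraries alone, in limma, or without IR 4, IR-Ori 1 or IR-Ori 6. With the replicate numbers as a block it did not pass either. Plekhm1, whose product tethers autophagosomes to lysosomes, rose by 0.83 ± 0.19 (adjusted p = 0.0116), with a median of 1.97 in sham and 3.71 in IR. Stx17, the syntaxin that fuses autophagosomes with lysosomes, was the 1 gene that rose with oridonin (0.84 ± 0.20, adjusted p = 0.0242), from a median of 4.39 in IR to 7.20 in IR-Ori. Its rise did not pass with library totals, in a fit of these libraries alone, in limma, or without IR 4, 5 or 6 or IR-Ori 1 or 4. At a mitochondrial share of at least 15%, 0 of the further genes passed in either comparison.

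Of 21 nutrient sensing and control genes, 1 passed: Sesn2 (sestrin 2, a leucine sensor that restrains mTORC1) fell in IR-Ori against IR (log2 fold change -1.40 ± 0.38, adjusted p = 0.0464). That call was lost with the mitochondrial share as a covariate, in a fit of the IR and IR-Ori libraries alone, in limma, or without any 1 of 9 libraries (IR 4 to 6 or any of IR-Ori). It was also lost with the replicate numbers as a block. Of the 17 genes for the lysosomal proton pump, the V-ATPase, 0 passed in either comparison in the same edgeR fit. For IR-Ori against IR, 13 of these 17 values were negative (median -0.56), and 6 were lower and 1 was higher at an unadjusted p under 0.05, against 14.4% and 9.81% of all genes. Other settings did make calls. With the mitochondrial share as a covariate, Atp6v0e, Atp6v1b2 and Atp6v1h were higher in IR than in sham and Atp6v0e was lower in IR-Ori than in IR. Library totals called Atp6v1b2 and Atp6v1h lower in IR-Ori than in IR, and no filter on low counts Atp6v1b2. In libraries with a share under 15%, where 11.6% of all genes passed, and in DESeq2 (12.5%), Atp6v1b2 and Atp6v1h were higher in IR than in sham. In IR-Ori against IR, DESeq2 called Atp6v0e, Atp6v1b2 and Atp6v1h lower.

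Of 37 further lysosomal enzyme genes, Lgmn (legumain, an asparaginyl protease) passed in both comparisons. Its FPKM was 7.32 to 14.3 in sham, 12.2 to 38.1 in IR and 7.42 to 11.1 with oridonin, so that the IR and IR-Ori ranges did not overlap. It rose by 1.24 ± 0.25 in IR (adjusted p = 0.00557) and fell by 1.25 ± 0.25 in IR-Ori against IR (adjusted p = 0.0114). Of the 17 membrane and cofactor genes tested, the tetraspanin gene Cd63 (1.61 ± 0.35, adjusted p = 0.00950) and the macrophage lysosome gene Cd68 (1.51 ± 0.39, adjusted p = 0.0223) rose in IR. The Cd68 call was lost without sham 3, 4 or 6, without IR 4 or 5, or with the replicate numbers as a block. Laptm5, a lysosomal gene of blood cells, fell in IR-Ori against IR (-1.41 ± 0.31, adjusted p = 0.0181), as did Laptm4b (-1.85 ± 0.50, adjusted p = 0.0422). Neither passed in limma, with the replicate numbers as a block, or without IR 4 or IR-Ori 1. Laptm4b did not pass in a fit of the IR and IR-Ori libraries alone or without any 1 of 6 other libraries (IR 5 or 6, or IR-Ori 2, 3, 4 or 6). Cd68 and Laptm5 are expressed mainly in macrophages and other blood cells. Of the 9 monocyte and recruited macrophage markers tested, 7 were higher in IR and 6 were lower in IR-Ori against IR. The sums of 10 markers of Kupffer cells, the resident macrophages, had medians of 64.1, 78.7 and 78.1 FPKM in sham, IR and IR-Ori. Of these 10 markers, 0 passed in either comparison. The part of macrophages and other blood cells in the values of Cd68 and Laptm5 was not tested.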

How the data were processed

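RNA sequencing libraries of mouse liver, 6 sham, 6 IR and 6 IR-Ori, were grouped by their titles. Per the labels' protocols, total RNA was extracted with a MagPure kit and libraries were made with a VAHTS V8 kit. Per the submitters' processing notes, cutadapt 1.9.1, HISAT2 2.2.1, DESeq2 and the build GRCm39 were used. Which tool, annotation and strand setting produced the counts is not given in the sources used here. Whole-number counts per gene, unscaled, and FPKM were deposited by the authors. Dividing counts by exonic size and library total returned 100% of the FPKM within 0.0051. No count columns were identical.

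Of 56691 genes, 14595 passed filterByExpr (minimum count 10, minimum total 15). They were fitted with edgeR 4.0.16 (R 4.3.3, TMM scaling, quasi-likelihood, 18 libraries, 15 residual degrees of freedom, common biological coefficient of variation 0.3984) and two-sided tests, with Benjamini-Hochberg adjustment over all 14595 and a threshold of 0.05. A standard error is the log2 fold change divided by the square root of F. The plan named limma on FPKM for a table without counts; limma 3.58.1, on log2(FPKM + 1) where at least 6 libraries reached an FPKM of 1, and DESeq2 1.42.0 were alternatives. The test was also tried on simulated data. Members in full detail are those past the threshold, Sqstm1, Map1lc3b, Tfeb, Ctsd, Ctsl and Lamp1, and, up to 10, those with the smallest p. Up to 4 genes per further list are named. A gene of the further lists that was counted is not reported here. Overlapping genes and near-identical copies were sought in the table and in GENCODE M21. Members, lists and tests were chosen with earlier results of these data known. A comparison of ATG8 protein sequences was planned and not made, since no protein table was used here.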

Additional observations from a re-analysis of the deposited data

Results flagged for a closer look

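In 12 of 108 gene and group sets of 6 libraries (11.1%), the highest library stood apart from the rest by Dixon's criterion at 95% for a group of 6. The criterion's 1 in 20 holds for independent sets of normally distributed values. These sets come from the same 18 libraries, so the 11.1% cannot be judged against it. The share over all genes is not given here. IR-Ori 5 was that library in 10 of the 12 sets. Its mitochondrial share was 14.1%, and the other IR-Ori libraries had 26.8 to 32.0%.

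Among the ATG8 genes, the FPKM in IR-Ori 5 was 92.5 for Gabarap (next highest 51.7), 89.5 for Gabarapl1 (32.2) and 16.8 for Gabarapl2 (7.92). For the conjugation genes it was 39.6 for Atg3 (22.8), 24.0 for Atg5 (12.6) and 4.05 for Atg12 (2.25). For lysosomal genes it was 156 for Lamp1 (48.7), 60.9 for Ctsb (32.4) and 54.3 for Ctsd (31.1), and Bnip3l held 20.5 (12.8). Some of these IR-Ori 5 values lay within the range of sham 1, 3 and 4, such as 60.9 beside 60.6 to 74.5 for Ctsb. Others lay below that range: 92.5 beside 94.9 to 110 for Gabarap, 54.3 beside 62.6 to 80.4 for Ctsd, and 156 beside 179 to 229 for Lamp1. Atg3 lay above it, at 39.6 beside 29.6 to 38.8.

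The other 2 were Atg2a in IR 4, at 35.6 FPKM beside 14.0 for the next highest IR library, and Tfeb in IR-Ori 1, at 2.92 beside 1.61. Without IR 4, the log2 fold change of Atg2a in IR against sham was 0.64.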

How the results depend on the processing

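Calls among the 36 genes depended on the processing. In IR against sham, 3 rose and 1 fell. Library totals without TMM, no filter on low counts and limma with either pseudocount gave 3 and 0. The counts were 1 and 0 from the 2 groups alone, 9 and 2 with the mitochondrial share as a covariate, 6 and 1 under a share of 15%, 0 and 0 at 15% or more, and 6 and 1 from DESeq2. The share of all genes called, 7.89% in the stated fit, was 6.08% from the 2 groups alone, 12.8% with the covariate, 11.6% under and 0.0943% at or over 15%, and 12.5% from DESeq2. In IR-Ori against IR, 2 fell: 4 with library totals, 4 without the filter, 1 from the 2 groups alone (Gla, with Sqstm1 and Map1lc3a both lost), 0 at a share of 15% or more, 7 from DESeq2 and 0 from limma. Of all genes, 3.60% were called, and in the same order 3.90%, 1.80%, 1.24%, 0.101%, 9.15%, and 1.10% and 0.803% (limma with pseudocounts of 1 and 0.1). RLE scaling and removing mitochondrial genes first kept every call. Over single libraries left out, IR against sham gave 1 to 4 higher and 0 to 1 lower, and IR-Ori against IR gave 0 to 1 higher and 0 to 7 lower. In IR-Ori against sham all these settings gave 0.

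Of the further pathway genes, 5 rose and 1 fell in IR against sham: 11 and 3 with the covariate, 0 and 0 at 15% or more, 9 and 3 under 15%, 10 and 3 from DESeq2, and 0 lower in limma. In IR-Ori against IR, 1 rose and 5 fell: 0 higher with library totals, 0 and 2 from the 2 groups alone, 0 and 0 at 15% or more, 3 and 15 from DESeq2, and 0 and 1 from limma. Left-out libraries gave 4 to 8 higher and 0 to 2 lower, and then 0 to 3 higher and 1 to 10 lower. The cause was not tested.

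The same replicate numbers occur in each group, and the labels do not say what they stand for. Correlations of same-numbered libraries were -0.51 to 0.38 between sham and the other groups. Between IR and IR-Ori they were 0.04 to 0.47, 5 of 6 were over 0.1, and 3 of the 6 correlated best with their own number. Not every pair was over 0.1, so the numbers were not taken to pair the libraries. With a replicate block, 1 member rose (Sqstm1, log2 fold change 1.61, adjusted p = 0.0349) and 0 fell in IR against sham, 0 fell in IR-Ori against IR (Sqstm1 -1.64, adjusted p = 0.0557; Map1lc3a -1.22, adjusted p = 0.0661), and of the further genes 4 rose, 1 fell, and then 1 rose and 1 fell. The block also left Atg2a (adjusted p = 0.0654), Gla (0.0663) and Mcoln1 (0.0556) without a call in IR against sham. Of all genes it called 4.41% and 1.12%. Gla in IR-Ori against sham was 0.18 with the block.

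Values near 0 changed sign, none past the threshold. For IR against sham, Lamp1 (-0.03) was 0.05 with library totals, 0.04 with the covariate, 0.51 at 15% or more, 0.28 and 0.29 in limma (pseudocounts 1 and 0.1) and -0.32 to 0.21 over left-out libraries. Map1lc3b (0.14) was -0.00 under 15% and -0.02 to 0.23 over left-out libraries. For IR-Ori against sham, Sqstm1 (-0.05) was 0.26 with the covariate, 0.15 at 15% or more and 0.02 and 0.02 in limma. Gla (-0.05) was 0.60, 0.91, 0.04 and 0.33 in the same order. Ctsl (-0.27) was 0.30 and 0.44 with the covariate and at 15% or more, and Atg12 (-0.29) was 0.12 and 0.24. Wipi2 (-0.04) was 0.01 with the covariate and Map1lc3b (-0.17) was 0.11 at 15% or more.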
